A study of Mus musculus with 3 samples.

Results

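The 45 genes described here encode proteins that choose, license and fire DNA replication origins and that build, feed and protect the replication fork. They were picked by name, with the MCM helicase genes left out, and were found on the array through the gene name given for each probe. They make up 45 of the 24812 genes that could be named through RefSeq, and 94 probes of the array carry them. The number of probes per gene was 1 for 15 genes and 2 or more for 30 genes.

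RNA came from CLDE, a mouse dental epithelial line made from the cervical loop, the niche of the growing incisor from which enamel epithelium is renewed. The cells grew in keratinocyte serum-free medium and were harvested 72 h after transfection with Lipofectamine RNAiMAX, with an siRNA against keratin 15 (siKrt15), with a non-targeting siRNA (siNeg), or as a mock transfection for which the labels name no siRNA. Each group has 1 array. The title of the series asks about keratin 15 and the proliferation of these cells. The labels of the siKrt15 and siNeg arrays contradict each other, since in each case the description and the treatment entry name the siRNA that the title and source name do not. The arrays are called by their titles throughout. Krt15 had a processed signal of 267 on the siKrt15 array, against 1647 on siNeg and 2638 on mock, which goes with the titles and against the descriptions. All cells come from a single line, and all 3 arrays share the same slide.

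Of the non-control spots, 67.3% (siKrt15), 69.2% (siNeg) and 69.0% (mock) were well above background. Marker signals here are processed signals of the brightest probe per gene, not scaled between arrays. All 7 epithelial markers were above background on each array, with summed signals of 231211 on siKrt15, 209802 on siNeg and 208998 on mock. Mesenchymal markers were above background for 4 of 7 genes on siKrt15, 4 on siNeg and 5 on mock, and their summed signals were 289 on siKrt15, 277 on siNeg and 313 on mock. Of 4 endothelial markers 1 was above background on each array (summed signal 24.9 on siKrt15, 20.1 on siNeg and 30.7 on mock), and of 6 immune markers 5 were (6127 on siKrt15, 6468 on siNeg and 7012 on mock). Pdgfrb, Lum, Cdh5, Kdr, Tek and Adgre1 were below background on every array. Above background were the immune markers Itgam (brightest probe 2744 on siKrt15, 3000 on siNeg and 3221 on mock), Cd68 (1349, 1333 and 1302), Ptprc (1073, 947 and 1217), Csf1r (620, 811 and 908) and Cd3e (340, 376 and 363), in the same order of arrays, and at lower signals the mesenchymal markers Dcn, Twist2, Col1a1 and Pdgfra and the endothelial marker Pecam1. The part of other cell types in the results below was not tested.

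DNA replication starts at origins bound by the origin recognition complex, where Cdc6 and Cdt1 load the MCM helicase in G1 phase and the kinase Cdc7 with Dbf4 then switches it on by letting Cdc45 and the GINS complex join. At the fork, primase and polymerase alpha lay down primers, the RFC complex loads the sliding clamp PCNA, and polymerases delta and epsilon copy the strands. Many of these genes are transcribed in waves as cells enter S phase, under E2F factors, and some of the proteins, such as Cdt1 and geminin, are also controlled by degradation.

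Values below are normalized log2 signals, the log2 of the scanner's processed signal minus the 75th percentile of that array, averaged over the probes of a gene. A probe entered a comparison when it was well above background on both arrays, and levels are compared between arrays and never between genes. With 1 array per group there is no replicate check and no test was possible. Each ± is an SD that the scanner software estimates for the spots (the error-model SD), without differences between cultures. For a gene with several probes, the ± is the mean of the probes' SDs and not the SD of their mean. In bulk RNA, a change in the number of cells that express a gene and a change in its RNA per cell cannot be told apart.

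Replication genes stood higher on the siKrt15 array than on either control, and no member was 2-fold lower. All 45 members were measured in every comparison. Their median log2 difference was 0.56 for siKrt15 against siNeg and 0.55 for siKrt15 against mock, where the medians of all genes were −0.08 and −0.06. Between the controls, siNeg against mock, the members' median was 0.03, and that of all genes was 0.02. The difference was above 0 for 40 of 45 members against siNeg, where 39.4% of all genes were, and for 41 against mock (41.9% of all genes). When arrays were scaled on their spike-in probes, 31 and 35 were above 0, where the medians of all genes were −0.29 and −0.26. Between the controls 55.5% of all genes lay above 0. Both comparisons share the siKrt15 array, so they are not independent of each other. More than 2 error SDs higher than siNeg were 27 members, where 7.55% of all genes were, and 1 member, Gins3, was as far below it (12.5% of all genes). Against mock 28 members lay more than 2 error SDs higher (8.80% of all genes) and 1 lower (12.1%), and for siNeg against mock 1 higher (3.06%) and 0 lower (1.26%). Over the members the SD of the differences was 0.47 against siNeg and 0.49 against mock, and 0.17 for siNeg against mock, where all genes gave 0.42, 0.43 and 0.23. Taking the probes measured on all 3 arrays, the highest level was on siKrt15 for 39 members, where 32.7% of all genes were highest there, on siNeg for 5 and on mock for 1.

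At least 2-fold higher on siKrt15 than on siNeg were 7 members, where the share of all 17121 measured genes past that fold was 1.70%. That count was 2 with the normexp background correction (0.479% of all genes) and 4 with scaling on the spike-in probes (1.10%). The count 2-fold lower was 0, with 2.0% of all genes past it. Against mock 10 members were 2-fold higher (2.18% of 17130 genes) and 0 were 2-fold lower (1.24%). The count higher than mock was 4 with normexp (0.595% of all genes) and 5 with spike-in scaling (1.38%). The 7 genes that were 2-fold higher than both controls were Orc1, Cdc6, Gins1, Rrm2, Tk1, Chaf1a and Timeless, where 1.49% of the genes measured in both comparisons met that rule, and Cdc45, Gins2 and Pole joined them against mock alone. At 1.5-fold the members higher numbered 19 against siNeg (4.80% of all genes) and 20 against mock (5.83%). By role, the medians against siNeg were 0.94 for nucleotide supply, 0.86 for chromatin assembly, 0.82 for origin firing, 0.69 for Okazaki fragment maturation, 0.67 for fork protection, 0.56 for licensing, 0.40 for single-strand binding, 0.39 for the polymerases and primase, 0.32 for the clamp and its loader and 0.07 for origin recognition. That order did not hold against mock, where origin firing (0.58) lay below licensing (0.73) and Okazaki fragment maturation (0.76). Origin recognition came to 0.39 against mock, above the clamp and its loader (0.37). Some roles hold only 2 or 3 genes. The only member 1.5-fold lower was Gins3, against siNeg (8.63% of all genes) and against mock (7.69%). Between siNeg and mock 0 members were 2-fold higher (0.356% of 17416 genes) and 0 were 2-fold lower (0.0459%).

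**Figure D1:**
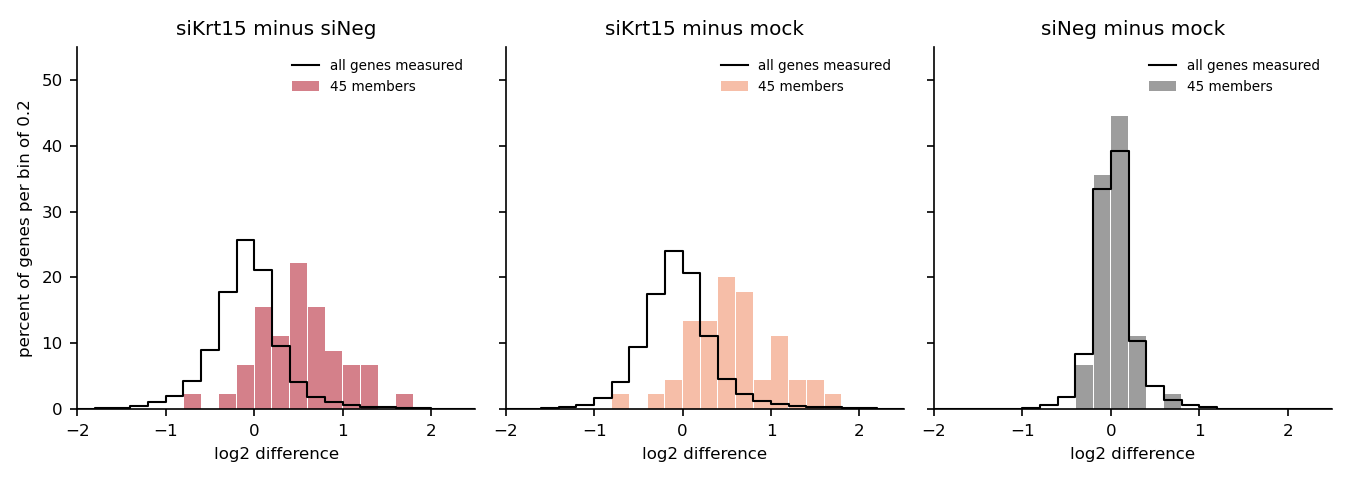
Share of genes, in percent, by log2 difference in bins of 0.2, for the 45 members (bars) and all genes measured (black line) in each comparison. The members' median is above that of all genes for siKrt15 against siNeg (medians 0.56 and −0.08) and against mock (0.55 and −0.06), and close to it for siNeg against mock (0.03 and 0.02).

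**Figure D2:**
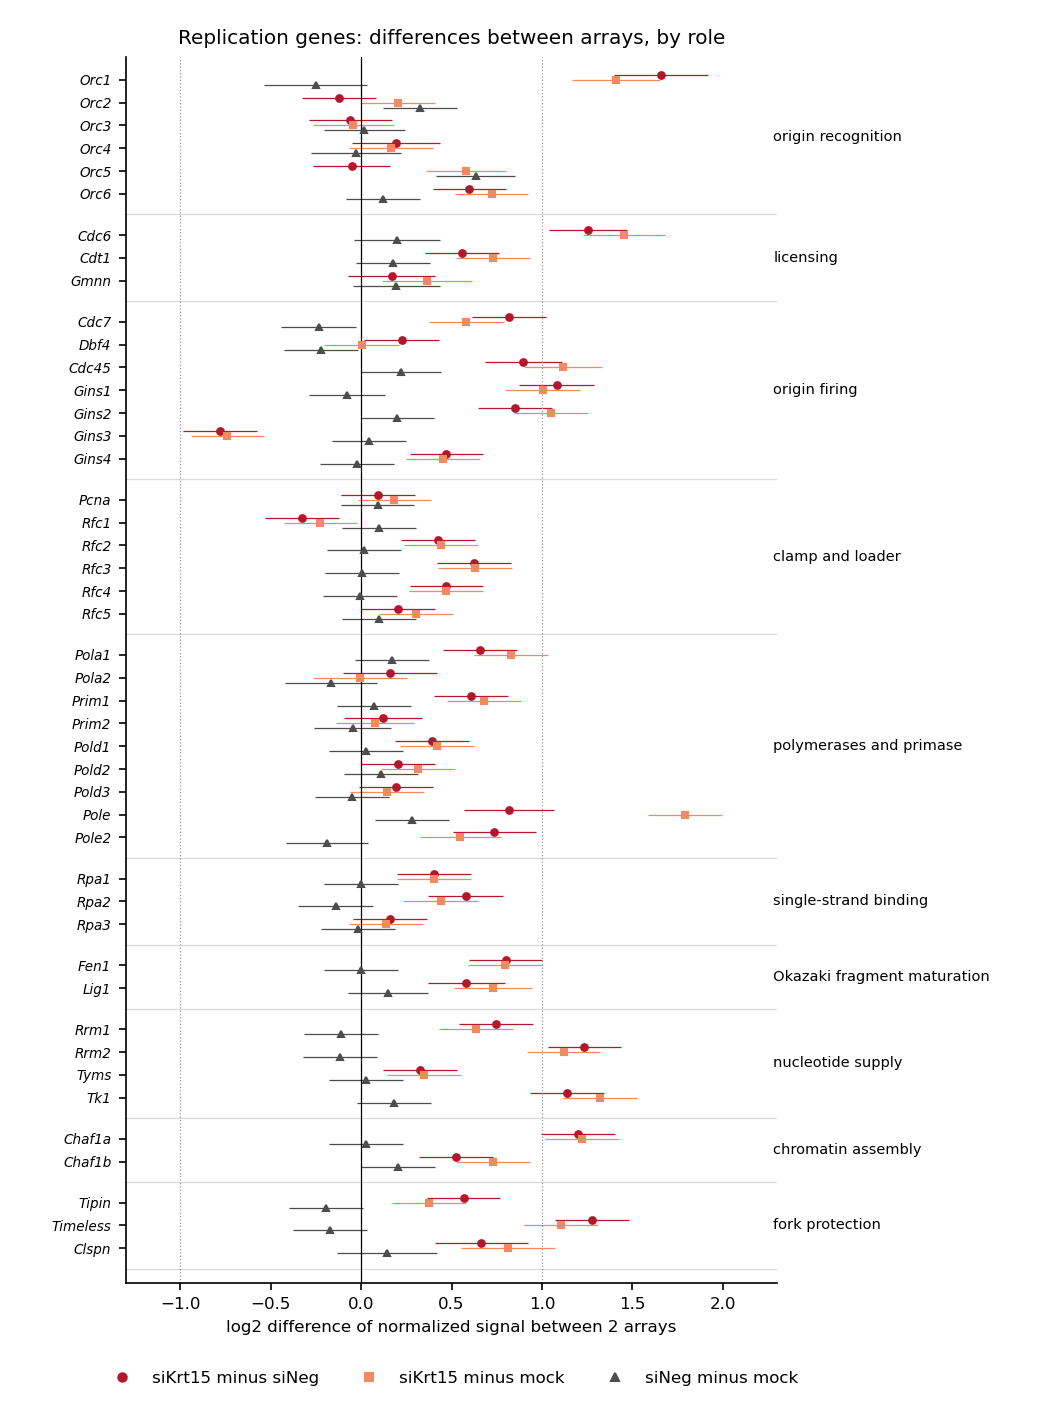
Log2 difference of normalized signal for each member, grouped by role, with the error-model SD as bars and dotted lines at 2-fold. Circles are siKrt15 minus siNeg, squares siKrt15 minus mock and triangles siNeg minus mock, with 1 array per group. Orc1 is highest against siNeg (1.66) and Pole against mock (1.79), and Gins3 is the lowest in both (−0.78 and −0.74).

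Among the 6 subunits of the origin recognition complex, Orc1 alone passed 2-fold. Orc1, the subunit whose level is known to follow the cell cycle, had signals of −2.69 on siKrt15, against −4.35 on siNeg and −4.09 on mock. It was the member with the largest difference from siNeg, 1.66 ± 0.26 (error-model SD), and differed from mock by 1.41 ± 0.24. Orc1 is dim, with a processed signal of 33.6 on siKrt15, against 8.87 on siNeg and 11.2 on mock, and its difference from siNeg came to 0.24 with the normexp background correction, which adds an offset of 50 to the signals. A second Orc1 probe, also dim (11.4 on siKrt15), was above background on siKrt15 alone. Its bounds were 2.12-fold above siNeg and 2.21-fold above mock, without allowance for the error of the spot. Since it passed only where it was high, it is no separate support. Orc6, which joins the ring of the other subunits, read 3.17 on siKrt15, against 2.57 on siNeg and 2.45 on mock. Its differences were 0.60 ± 0.20 and 0.72 ± 0.20. The 4 other subunits lay within 0.20 of siNeg. Orc2 read −0.02 on siKrt15, against 0.10 on siNeg and −0.22 on mock. Orc3 read −0.02 on siKrt15, against 0.04 on siNeg and 0.02 on mock. Orc4 read −1.57 on siKrt15, against −1.76 on siNeg and −1.73 on mock. Orc5 read −2.06 on siKrt15, against −2.01 on siNeg and −2.65 on mock, so that the 2 siRNA arrays stood together above mock (by 0.58 for siKrt15 and 0.63 for siNeg). Orc5 is the only member that differed 1.5-fold between the controls.

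Among the licensing factors, Cdc6, the ATPase that brings the helicase to the origin, read −1.19 on siKrt15, against −2.45 on siNeg and −2.64 on mock. It was higher by 1.25 ± 0.22 than siNeg and by 1.45 ± 0.23 than mock. Its 2 probes lie in the same transcript and differ in size of change, 1.81 and 0.70 against siNeg, so that the second alone is under 2-fold. Cdt1, its partner in loading, read 3.58 on siKrt15, against 3.02 on siNeg and 2.85 on mock. The differences of 0.56 ± 0.20 and 0.73 ± 0.20 left Cdt1 under 2-fold. Geminin (Gmnn), which binds Cdt1 and blocks relicensing, read −0.11 on siKrt15, against −0.28 on siNeg and −0.47 on mock. Its mean differences were 0.17 ± 0.24 and 0.36 ± 0.25, but the 2 probes of its curated transcript gave 0.51 and 0.45 against siNeg. The remaining probe, close to background, gave −0.46 and is listed on the opposite strand to them. The 2 curated probes alone averaged 0.48, and whether the remaining probe reads the Gmnn RNA was not tested.

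The GINS complex, part of the active helicase, included the member with the lowest difference of all. Gins1 (PSF1) read −0.62 on siKrt15, against −1.70 on siNeg and −1.63 on mock, and was higher by 1.08 ± 0.21 and 1.01 ± 0.21. Gins2 (PSF2) read 1.35 on siKrt15, against 0.50 on siNeg and 0.30 on mock. It passed 2-fold against mock (1.05 ± 0.20) and lay at 0.85 ± 0.20 against siNeg. Gins4 (SLD5) read 2.85 on siKrt15, against 2.38 on siNeg and 2.40 on mock, with differences of 0.47 ± 0.20 and 0.45 ± 0.20. Gins3 (PSF3) went the other way, at 4.71 on siKrt15, against 5.49 on siNeg and 5.45 on mock. Its differences were −0.78 ± 0.20 and −0.74 ± 0.20, while the controls differed by 0.04. Gins3 has a single probe, at chr8:98168040-98168099 on mm9, and a processed signal of 5649 on siKrt15, against 8108 on siNeg and 8338 on mock, and it stayed negative against siNeg in all 15 settings tried (−0.99 to −0.69). The 4 subunits of this complex did not share a direction.

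Cdc45, which completes the active helicase with GINS and MCM, read −1.94 on siKrt15, against −2.84 on siNeg and −3.06 on mock. It was higher than mock by 1.12 ± 0.22 and lay 0.90 ± 0.21 above siNeg, its 2 probes at 1.28 and 0.51 against siNeg. The kinase Cdc7 read −0.49 on siKrt15, against −1.31 on siNeg and −1.07 on mock, or differences of 0.82 ± 0.21 and 0.58 ± 0.20. A second, dim Cdc7 probe (6.26 on mock) was above background on mock only, with a bound of 1.57-fold lower on siKrt15, without allowance for error. Dbf4, the regulatory subunit of Cdc7, read −1.45 on siKrt15, against −1.67 on siNeg and −1.45 on mock, and differed from mock by less than 0.01, a mean of probes at 0.51 and −0.50.

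**Figure D3:**
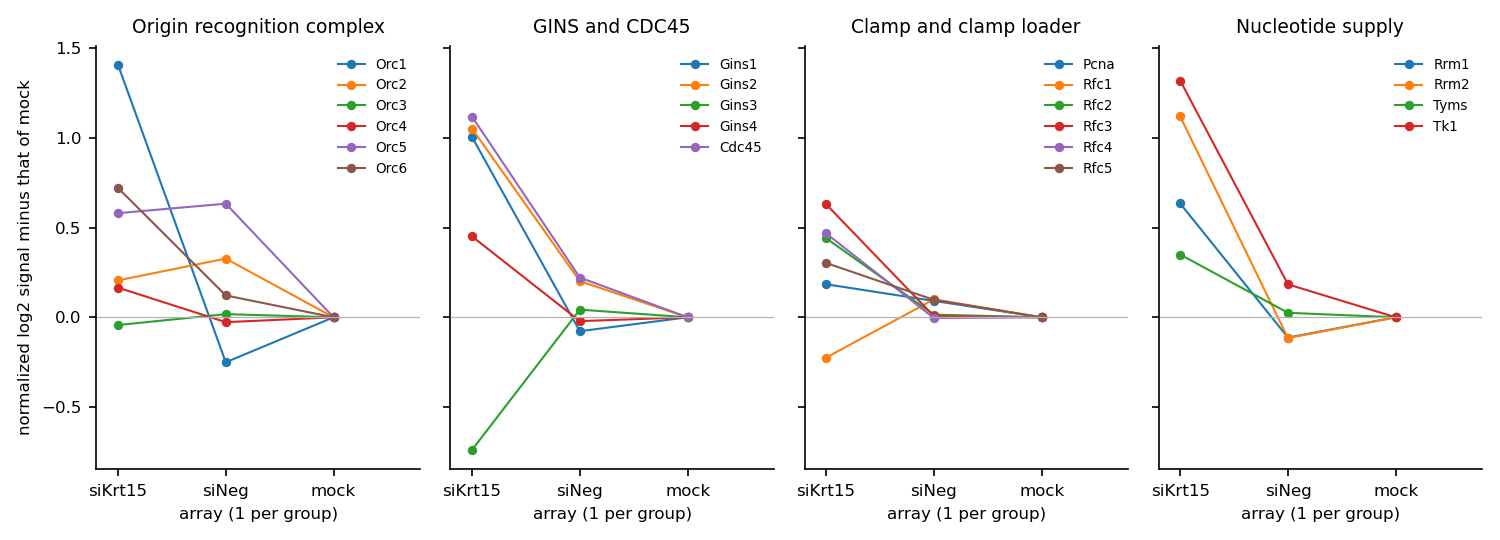
Normalized log2 signal of each gene minus its value on mock (vertical axis), on the siKrt15, siNeg and mock arrays, 1 array per group, for 4 sets of members. Orc1 departs from the other origin recognition subunits, Gins3 lies below mock on siKrt15 (−0.74) where Gins1, Gins2, Gins4 and Cdc45 lie above it, and the clamp and loader genes stay under 2-fold.

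The promoters of the genes at both ends of the range show what E2F-type letters these genes carry. They are printed because Orc1, Timeless and Cdc6 had the highest differences from siNeg among members with a promoter entry and Gins3, Rfc1 and Orc2 the lowest. Orc2 has 2 entries, and each sequence is the 250 bases before the annotated start, 5′ to 3′ on the strand of the gene, from RefSeq on GRCm38.p6. Capitals mark matches, on either strand, to the E2F letters TTTCCCGC, TTTGGCGC, TTTCGCGC or TTTGCCGC and to CCAAT. Orc1 lies at chr4:108579204-108579453 on the plus strand, Timeless at chr10:128237816-128238065 (plus), Cdc6 at chr11:98907901-98908150 (plus) Gins3 at chr8:95633309-95633558 (plus), Rfc1 at chr5:65335640-65335889 (minus) and Orc2 at chr1:58505110-58505359 and chr1:58501427-58501676 (both minus).
Orc1: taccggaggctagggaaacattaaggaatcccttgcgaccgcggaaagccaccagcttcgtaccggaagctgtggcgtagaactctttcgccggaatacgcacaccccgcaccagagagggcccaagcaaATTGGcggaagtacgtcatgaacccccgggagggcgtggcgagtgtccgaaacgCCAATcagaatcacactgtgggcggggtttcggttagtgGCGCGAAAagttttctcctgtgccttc
Timeless: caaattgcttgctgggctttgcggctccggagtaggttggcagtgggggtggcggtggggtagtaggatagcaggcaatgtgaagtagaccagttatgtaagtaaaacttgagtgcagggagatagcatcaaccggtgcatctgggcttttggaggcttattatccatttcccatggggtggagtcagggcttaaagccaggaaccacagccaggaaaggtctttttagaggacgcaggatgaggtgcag
Cdc6: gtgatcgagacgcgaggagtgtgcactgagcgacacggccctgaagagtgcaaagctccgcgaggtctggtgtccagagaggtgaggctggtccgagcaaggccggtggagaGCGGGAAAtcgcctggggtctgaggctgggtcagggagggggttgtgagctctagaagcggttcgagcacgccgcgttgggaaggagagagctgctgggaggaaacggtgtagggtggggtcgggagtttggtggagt
Gins3: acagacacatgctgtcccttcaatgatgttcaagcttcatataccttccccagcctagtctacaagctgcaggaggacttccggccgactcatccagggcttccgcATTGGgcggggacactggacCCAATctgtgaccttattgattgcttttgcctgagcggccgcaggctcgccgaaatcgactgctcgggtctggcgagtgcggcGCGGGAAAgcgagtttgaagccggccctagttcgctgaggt
Rfc1: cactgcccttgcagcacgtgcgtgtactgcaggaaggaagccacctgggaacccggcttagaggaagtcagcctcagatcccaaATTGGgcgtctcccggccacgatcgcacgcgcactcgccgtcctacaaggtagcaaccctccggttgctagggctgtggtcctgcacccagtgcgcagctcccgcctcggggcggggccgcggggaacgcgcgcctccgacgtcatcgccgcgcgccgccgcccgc
Orc2 first: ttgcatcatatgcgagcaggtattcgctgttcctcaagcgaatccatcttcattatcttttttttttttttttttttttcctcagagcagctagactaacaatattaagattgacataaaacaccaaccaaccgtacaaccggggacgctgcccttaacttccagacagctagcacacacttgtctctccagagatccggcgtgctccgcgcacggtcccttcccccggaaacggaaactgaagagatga
Orc2 second: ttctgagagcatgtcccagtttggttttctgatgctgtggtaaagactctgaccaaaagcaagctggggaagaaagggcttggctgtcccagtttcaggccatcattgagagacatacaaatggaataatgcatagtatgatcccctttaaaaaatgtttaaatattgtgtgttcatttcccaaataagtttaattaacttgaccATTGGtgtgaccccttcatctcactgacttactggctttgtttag
Orc1 held 1 E2F match (TTTCGCGC) and 2 CCAAT matches, Cdc6 held 1 E2F match (TTTCCCGC), and Timeless held none of either. At the low end Gins3 held 1 E2F match (TTTCCCGC) and 2 CCAAT matches, while Rfc1 and the second entry of Orc2 held 1 CCAAT match each and no E2F match, and the first entry of Orc2 held neither.

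Over the windows of 250 bases before to 50 after the start, E2F letters were found in 12 of the 37 members with an entry (32.4%), against 704 of all 27025 genes in the table (2.61%) and 3.29% of the protein-coding ones. CCAAT stood in 51.4% of the members, against 41.1% of all genes. The cell-cycle homology letters TTTGAA or TTCGAA stood in 18.9% of members, against 21.7% of all genes. Motifs were searched on both strands, and overlaps between motifs were allowed. The 12 members with E2F letters had a median difference from siNeg of 0.60 (−0.78 to 1.66), and the 25 without had 0.47 (−0.32 to 1.28). A match to letters is a description of the window and does not show binding.

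**Figure D4:**
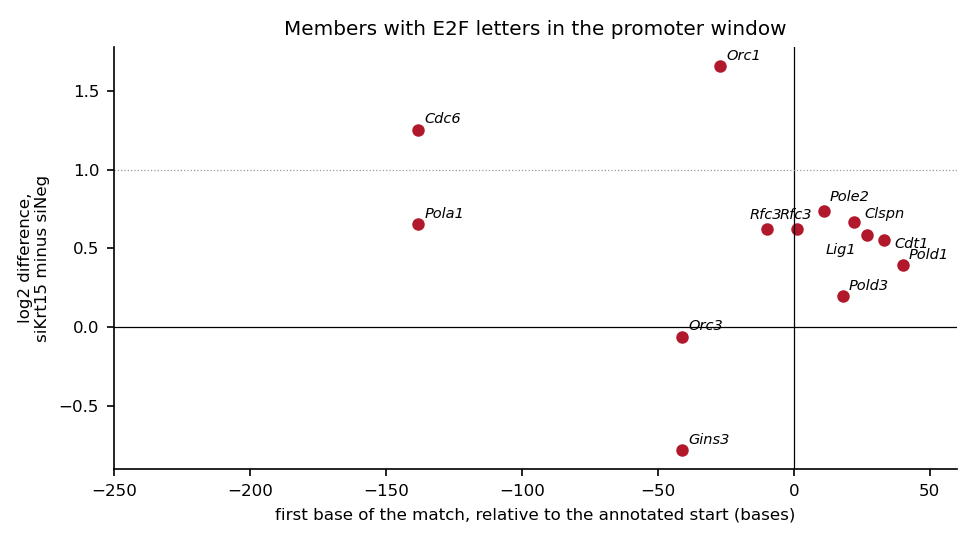
Log2 difference, siKrt15 minus siNeg, of the 12 members with E2F letters in the promoter window, against the first base of each match relative to the annotated start in bases. Points run from Gins3 (−0.78) to Orc1 (1.66), and Rfc3 appears at 2 positions.

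At the fork, the sliding clamp and its loader showed small differences. PCNA (Pcna), the clamp that tethers the polymerases, lay at 0.09 ± 0.20 against siNeg and 0.18 ± 0.20 against mock, and its normalized signal was 4.04 on siKrt15, against 3.94 on siNeg and 3.85 on mock. The loader's large subunit Rfc1 lay at −0.32 ± 0.20 against siNeg and −0.22 ± 0.20 against mock. The small subunits Rfc2 (0.43 and 0.44), Rfc3 (0.62 and 0.63), Rfc4 (0.47 and 0.47) and Rfc5 (0.21 and 0.30) were all positive against siNeg and mock, and none of the 6 genes passed 2-fold. The Rfc5 value is a mean of unlike probes, at 0.65, 0.28 and −0.32 against siNeg and 0.73, 0.41 and −0.23 against mock. With spike-in scaling Pcna turned to −0.12 against siNeg and Rfc5 to −0.01. RefSeq lists pseudogenes of Pcna and Tyms, so that their probes may also read other copies, which was not tested.

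Of the 9 polymerase and primase genes, Pole alone passed 2-fold, against mock. Pole, the catalytic subunit of the leading-strand polymerase epsilon, read 0.76 on siKrt15, against −0.75 on siNeg and −1.03 on mock, on the probe measured on all 3 arrays. On that probe it was higher by 1.51 than siNeg and by 1.79 ± 0.20 than mock, and the gene value of 0.82 ± 0.25 against siNeg averages in a dim probe at 0.13 that was below background on mock. The 2 comparisons of Pole therefore rest on different probes. The accessory subunit Pole2 read −2.41 on siKrt15, against −3.14 on siNeg and −2.96 on mock, with differences of 0.74 ± 0.23 and 0.55 ± 0.22, and its 2 probes gave 1.54 and −0.07 against siNeg. Of polymerase alpha, the catalytic subunit Pola1 read 0.42 on siKrt15, against −0.23 on siNeg and −0.41 on mock, or 0.66 ± 0.20 and 0.83 ± 0.20. Pola2, its regulatory subunit, read −3.24 on siKrt15, against −3.40 on siNeg and −3.24 on mock, and differed from mock by −0.01. The primase catalytic subunit Prim1 read 2.14 on siKrt15, against 1.54 on siNeg and 1.46 on mock, or 0.61 ± 0.20 and 0.68 ± 0.20. Prim2, the other primase subunit, read −1.35 on siKrt15, against −1.47 on siNeg and −1.43 on mock, a mean of probes that went opposite ways. The subunits of polymerase delta lay closer to the controls. Pold1, its catalytic subunit, read 2.30 on siKrt15, against 1.91 on siNeg and 1.89 on mock. Pold2, an accessory subunit, read 4.12 on siKrt15, against 3.91 on siNeg and 3.80 on mock. Pold3, another accessory subunit, read 0.29 on siKrt15, against 0.09 on siNeg and 0.15 on mock. With spike-in scaling Pola2 (−0.05), Prim2 (−0.09), Pold2 (−0.01) and Pold3 (−0.02) turned negative against siNeg.

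The single-strand binding protein RPA and the enzymes that finish Okazaki fragments lay between 0.16 and 0.80 above siNeg, with 0 of 5 genes past 2-fold. Rpa1 lay at 0.40 ± 0.20 against siNeg and 0.40 ± 0.20 against mock, Rpa2 at 0.58 and 0.44, and Rpa3 at 0.16 and 0.14. With spike-in scaling Rpa3 turned to −0.06 against both. The flap endonuclease Fen1 lay at 0.80 ± 0.20 against both controls, which differed from each other by less than 0.01. The ligase Lig1 lay at 0.58 ± 0.21 and 0.73 ± 0.22.

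Nucleotide supply had 2 of its 4 genes 2-fold higher than both controls, with medians of 0.94 against siNeg and 0.88 against mock. Rrm2, the S phase subunit of ribonucleotide reductase, read 2.36 on siKrt15, against 1.12 on siNeg and 1.24 on mock, from a probe at chr12:25398824-25398883 on mm9. It was higher by 1.24 ± 0.20 and 1.12 ± 0.20, and was the only member past 2-fold against siNeg in all 15 settings, while against mock it came to 0.92 with spike-in scaling. Rrm1, the large subunit, read 1.85 on siKrt15, against 1.10 on siNeg and 1.22 on mock, or 0.75 ± 0.20 and 0.63 ± 0.20. Thymidine kinase (Tk1), of the salvage route, read 0.77 on siKrt15, against −0.37 on siNeg and −0.55 on mock, and was higher by 1.14 ± 0.20 and 1.32 ± 0.20. Its 3 measured probes agreed, from 0.96 to 1.37 against siNeg, while 2 dim probes to other transcripts were above background on mock alone. Thymidylate synthase (Tyms) read 0.59 on siKrt15, against 0.27 on siNeg and 0.24 on mock, or 0.32 ± 0.20 and 0.35 ± 0.20.

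Chaf1a, the large subunit of the chromatin assembly factor that puts histones on new DNA, read 1.15 on siKrt15, against −0.05 on siNeg and −0.08 on mock, from a probe at chr17:56206969-56207028 on mm9. It was higher by 1.20 ± 0.20 and 1.22 ± 0.20, and the controls differed by 0.03. Its partner Chaf1b read 2.77 on siKrt15, against 2.25 on siNeg and 2.04 on mock, or 0.52 ± 0.20 and 0.73 ± 0.20. Of the fork protection genes, Timeless, which with Tipin steadies stalled forks, read 0.63 on siKrt15, against −0.65 on siNeg and −0.48 on mock. It was higher by 1.28 ± 0.20 and 1.10 ± 0.20, with both probes on the same side (1.20 and 1.36 against siNeg). Tipin, which binds Timeless, read 2.95 on siKrt15, against 2.38 on siNeg and 2.58 on mock, or 0.57 ± 0.20 and 0.37 ± 0.20. Claspin (Clspn), the adaptor that carries the fork signal to the checkpoint kinase Chk1, read −3.23 on siKrt15, against −3.90 on siNeg and −4.04 on mock, or 0.67 ± 0.26 and 0.81 ± 0.26. It is dim, and fell to 0.06 against siNeg with the normexp correction.

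Probes of the same gene often disagreed, and the kind of transcript they were designed on went with part of it. This grouping was made after the values were seen. Member probes to curated RefSeq transcripts (NM) numbered 66 against siNeg, with a median of 0.56 and 13 at least 2-fold higher, and the 17 probes to other records had a median of −0.01 and 0 at least 2-fold higher. Over all measured probes named through RefSeq the medians were −0.03 (NM) and −0.20 (other), and 1.94% of 21684 NM probes and 0.601% of 7324 others were at least 2-fold higher. Of 13 members with both kinds, the NM probes were higher in 11, and the median gap over the 13 was 0.59. The same count was not made over all genes. In Gmnn, 1 of the 13, the other probe is listed on the opposite strand. Probes of the same NM transcript also differed, by 1.11 in Cdc6, 0.86 in Clspn and 0.77 in Cdc45. Some of the other probes below 0 were dim, with processed signals on siKrt15 of 6.32 (Pola2), 7.50 (Gmnn) and 9.03 (Orc3). The brighter other probes of Rpa1 (1222) and Rfc4 (384) lay at 0.41 and 0.65, but that of Rfc5 (322) lay at −0.32. The kind of record and brightness were not separated. Probes of a gene differed by 1 or more on the log2 scale in 5 members (Cdc6, Pola2, Prim2, Pole and Pole2).

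The first 30 bases of the probes are printed for 3 of those genes, since their gene value is a mean of unlike readings. Coordinates are on mm9, as the array's files give them, and the exon or untranslated position of a probe was not used here. For Pole2 the NM probe lies at chr12:70307465-70308864 and lay at 1.54, and the other lies at chr12:70322698-70322974 and lay at −0.07. Both spans are wider than the 60 bases of a probe. Capitals mark CAGGTAAG, the letters typical of an exon end followed by the start of an intron.
Pole2 NM: tcacgactaatccttgcagaattcagtatt
Pole2 other: ttttacacCAGGTAAGttgggaatgggaga
For Prim2 the NM probe at chr1:33510733-33510792 lay at 0.80 and the other at chr1:33535912-33535971 at −0.55.
Prim2 NM: ggaaaggaagcattcctattgaaactgtta
Prim2 other: taaaaagtttcctataaaagttctctaaga
For Cdc6 both probes belong to the same NM transcript, at chr11:98782573-98782632 (1.81) and chr11:98782801-98782860 (0.70).
Cdc6 first: ccccagaatcttcattttagtaaggtcgtt
Cdc6 second: acatagtgagcttgagctggcctggactac
The capital letters stand in the other probe of Pole2 and in no further member probe. Over the array they stand in 8 of 29638 NM probes and 24 of 26967 others.

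**Figure D5:**
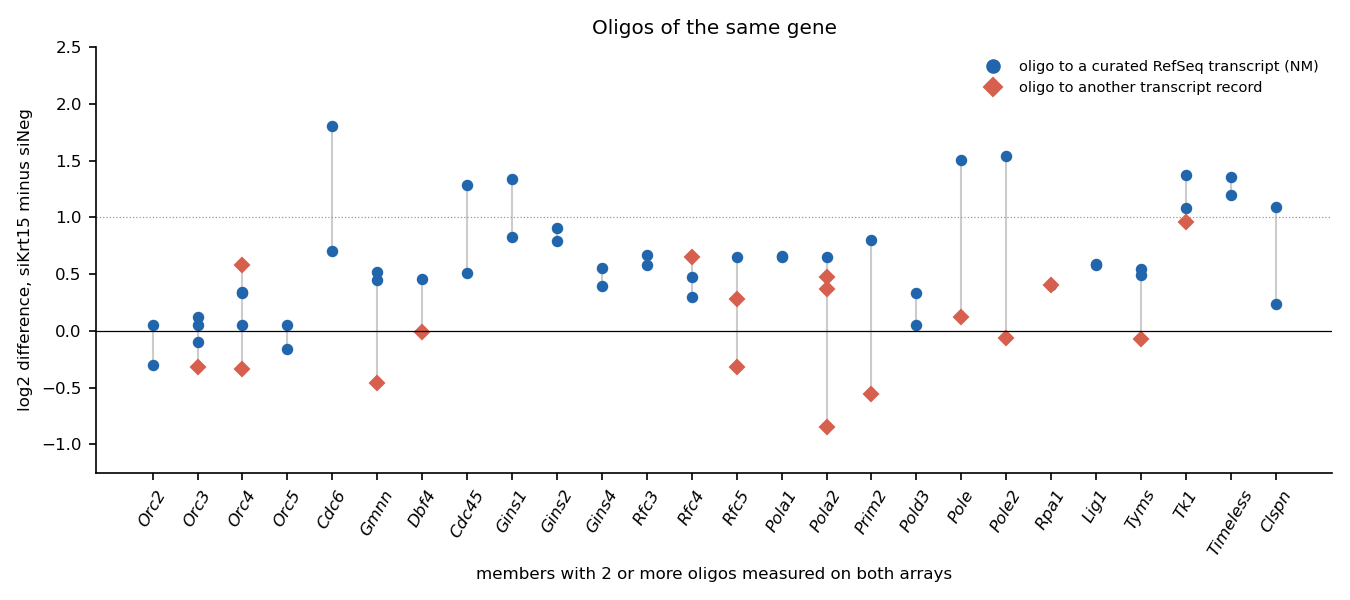
Log2 difference, siKrt15 minus siNeg, for each measured probe of the members with 2 or more such probes. Blue circles are probes to curated RefSeq transcripts and red diamonds probes to other records, and the dotted line is 2-fold. The widest gaps are in Pole2 (1.54 and −0.07) and Pola2 (0.65 to −0.85).

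Other replication genes, from a list chosen with earlier results of these data known, were read for comparison. Of the MCM2-7 helicase, 2 of 6 were 2-fold higher than siNeg and 3 than mock. Mcm5 differed by 1.96 against siNeg and 2.05 against mock, Mcm3 by 1.04 and 1.14, Mcm4 by 0.95 and 1.03, Mcm7 by 0.77 and 0.75, Mcm2 by 0.65 and 0.57, and Mcm6 by 0.55 and 0.47. Of 48 others, 6 were 2-fold higher than siNeg and 7 than mock, and 0 were 2-fold lower in either, with medians of 0.25 and 0.29. Among them were the histone chaperone Asf1b (1.69 and 1.66), topoisomerase Top2a (1.45 and 1.65), the alternative clamp loader subunit Dscc1 (1.44 and 1.41), and Mcm10 (1.13 and 1.17) and Ticrr (1.12 and 1.11) of origin firing.

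Several 2-fold calls depended on how dim values and array scaling are treated. With normexp, 5 of the 7 calls against siNeg fell under 2-fold, Orc1 at 0.24, Cdc6 at 0.45, Gins1 at 0.65, Tk1 at 0.90 and Timeless at 0.98. With spike-in scaling Gins1 (0.87), Tk1 (0.92) and Chaf1a (0.98) did. Against mock, normexp put 6 of the 10 under 2-fold, Orc1 at 0.27, Cdc45 at 0.40, Cdc6 at 0.55, Gins1 at 0.60, Timeless at 0.89 and Gins2 at 0.91. Spike-in scaling did so for Gins1 (0.81), Gins2 (0.85), Timeless (0.91), Cdc45 (0.92) and Rrm2 (0.92). Cdc6 came to 0.70 against both controls on its brightest probe, and Cdc45 to 0.59 against mock. Taking the 75th percentile over all spots or over probes detected on all arrays put Gins1 at 0.97 and 0.98 against mock. With no filter on dim probes Tk1 came to 0.70 against siNeg, and Tk1 to 0.52, Orc1 to 0.90 and Pole to 0.97 against mock. Scaling on the spike-in probes moved every gene by the same amount, −0.21 against siNeg and −0.20 against mock. The gap between the members' median and that of all genes, 0.64 and 0.61, could therefore not change and is no separate support. With normexp, where that gap could change, it was 0.51 against siNeg and 0.45 against mock.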

How the data were processed

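Total RNA was labelled with Cy3 as cRNA, per the labels' protocols, and read on Agilent mouse arrays of 1 colour. The deposited scanner files came from Agilent Feature Extraction 11.5.1.1, per the submitters' processing notes, and give for each spot a background-subtracted processed signal, an intensity on a linear scale, beside quality flags. The authors also deposited a table of log2 values. Compared probe by probe with the scanner signals, its values lie within 0.01 of their log2 less an offset for each array, close to the 75th percentile, for 92.4% (siKrt15), 94.0% (siNeg) and 93.8% (mock) of probes, and genes are not centred (medians −3.72 for siKrt15, −3.51 for siNeg and −3.52 for mock). It was used as an alternative.

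Outlier spots were left out (85 on siKrt15, 68 on siNeg and 69 on mock), spots of a probe were averaged on the log2 scale, and the 75th percentile of the array was subtracted. No spot was saturated (0 on each array). RefSeq's gene table (GRCm38.p6) supplied the gene names of probes, 32989 by accession, 10224 by symbol and 520 by synonym, and 12865 kept only the name in the files. A gene's difference is the mean over probes well above background on both arrays, and the thresholds were 2-fold and 1.5-fold. Of the 94 member probes 82 were above background on all 3 arrays, 5 on some and 7 on none. A probe above background on 1 array only gives a bound, the bright value over the dim probe's own value or the lowest value above background, whichever was higher. The bound takes no account of the error-model SD.

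The error-model SD given for a gene's difference, the mean of its probes' SDs, had a median of 0.207 (log2). Precision is limited by the number of arrays. Python 3.11.15, numpy 2.4.6, pandas 2.3.3, statsmodels 0.14.6, R 4.3.3 and limma 3.58.1 (normexp, offset 50) were used, and the procedure was tested on simulated arrays. Groups follow the titles. All members are named, with signals on each array for those of a role with a member past 2-fold against either control, other replication genes are named where past 2-fold against both, and MCM2-7 always. Not every gene so named is reported here. Members, lists and rules were chosen with earlier results of these data known.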

Additional observations from a re-analysis of the deposited data

How the results depend on the processing

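No paired analysis was possible because each group has 1 array and the labels give no replicate numbers, and for the same reason no array could be left out. Results were recomputed under 14 other settings, 2 of them (NM probes only, and a processed signal of at least 50 on 1 array or more) chosen after seeing the data, and at 1.5-fold. The members' median kept its sign against both controls throughout, and came to 0.34 against siNeg with spike-in scaling. The count of members 2-fold higher than siNeg was 2 with normexp (0.479% of all genes) and 4 with spike-in scaling (1.10%), and 19 passed 1.5-fold (4.80%). Against mock it was 4 with normexp (0.595% of all genes) and 5 with spike-in scaling (1.38%), and 20 passed 1.5-fold (5.83%). At 1.5-fold, 1 member was lower against each control. For siNeg against mock, 1 member was 2-fold higher without a filter on dim probes (3.37% of all genes) and 1 was 1.5-fold higher (2.42%). The causes were not tested.

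Of 1875 recomputed values of single members, 142 moved by more than the error and 0 changed the sign of a 2-fold call. Counting every member, whatever its size of change, the sign varied between settings for 13 against siNeg and 10 against mock. Among members under 2-fold, Chaf1b came to −0.74 against siNeg, and Cdc7 to −0.59 and Rpa2 to −0.28 against mock, when dim probes were not filtered. Of all genes past 2-fold, 46.0% were higher against siNeg and 63.7% against mock. Those shares were 78.1% and 81.0% with normexp, 72.6% and 82.2% with quantile normalization, 20.5% and 31.7% after scaling on spike-ins, 72.9% and 81.8% after removing the signal trend, 18.7% and 29.4% without a filter on dim probes, 75.3% and 78.6% with a stricter one, 55.2% and 72.8% with NM probes only, and 79.0% and 80.4% with a signal of at least 50. With no filter the median of all genes moved by −0.12 against siNeg.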
